A study of Drosophila melanogaster with 2 samples.

Results

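The regions described here are the embryonic binding sites of a tagged Krüppel-like factor that lie a little way off from promoters. They are the peaks whose summit, the base of highest signal, fell 501 to 1000 bp from the nearest transcription start site (TSS) on either side. Of the authors' optimal list of peaks, 318 met that rule (9.49%, exact 95% interval 8.52 to 10.5%). The rest of the list comprised 1976 with a summit within 500 bp of a TSS, called nearer peaks below, and 1056 with a summit farther than 1000 bp, called distal peaks. The authors kept that list for its reproducibility between the replicates, and within it the rule used position alone.

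The series is chromatin immunoprecipitation followed by sequencing (ChIP-seq), which recovers and counts the DNA bound to a chosen protein. It holds 1 group of 2 libraries, biological replicates 1 and 3, from Drosophila melanogaster of the strain Bteb2-GFP, whole embryos of both sexes aged 4 to 20 h. The flies stably express Bteb2 with enhanced green fluorescent protein (eGFP) at its C-terminus, from an insertion that targets Klf15, and an antibody against GFP pulled down the sonicated chromatin (fragments of 200 to 800 bp). No untagged or input library and no other condition was analysed here, so the values compare regions within the same libraries and a signal that any GFP pull-down would give was not measured. Whole embryos mix all cell types of the stages collected, and the labels do not say how the collections of the 2 replicates were kept apart.

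Bteb2 is the product of Klf15, one of the Krüppel-like factors (KLF), transcription factors whose zinc fingers recognise GC-rich boxes and CACCC boxes. Many fly promoters carry short core elements close to the TSS. Among them are the DNA replication-related element (DRE), read by Dref and overlapping the binding site of BEAF-32, and motif 1, read by M1BP, and both are typical of genes active in most cells. Sites farther from the TSS are often enhancers in the first intron or just upstream, where sites for GATA, forkhead, Sox and homeodomain factors are more usual.

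The sequences at 4 of the strongest 8 summits, all outside exons, show the DNA under the signal. Each runs 50 bp to either side of the summit on the plus strand of dm6 (the Release 6 genome). Capitals mark the forkhead site TGTTTAC, the TATA box TATAAA, the GATA site TGATAA and the 6-base words ACAGTG and ACTGTA, each on either strand. The last pair of words overlap in the run TACAGTG, which the Lk6 peak holds.
Lk6, chr3R:11761005-11761105, intron: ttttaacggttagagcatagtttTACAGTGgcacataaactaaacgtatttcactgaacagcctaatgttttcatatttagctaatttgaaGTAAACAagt
CG9663, chr2L:3302127-3302227, intron: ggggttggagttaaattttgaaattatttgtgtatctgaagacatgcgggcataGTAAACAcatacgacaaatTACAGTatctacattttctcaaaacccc
chif, chr2L:16351218-16351318, intron: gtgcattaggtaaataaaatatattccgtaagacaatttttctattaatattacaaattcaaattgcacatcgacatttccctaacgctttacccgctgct
lncRNA:CR45643, chr3R:16224452-16224552, intergenic: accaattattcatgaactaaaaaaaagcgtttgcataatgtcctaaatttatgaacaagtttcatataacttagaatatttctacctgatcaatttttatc

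A second set shows summits beside their own promoters, as a description, since the rule kept every summit away from the TSS. Motif 1 (GGTCACACT) stood within 100 bp of the nearest TSS of 15 of the 318 peaks and within 100 bp of the summit of none. For 4 strong ones among the 15, outside exons, 30 bp around motif 1 at the TSS (capitals) are shown, followed by 30 bp to either side of the summit, all on the plus strand of dm6. In all 4 the motif 1 match lies upstream of the TSS, and its 5′ end is 40 bp away at RasGAP1, 92 bp at sgl, 34 bp at Cyt-c-p and 69 bp at crb.
RasGAP1 TSS, chr3L:9855307-9855336: ccaacgaattAGTGTGACCttagcacggtg
RasGAP1 summit, chr3L:9855923-9855983: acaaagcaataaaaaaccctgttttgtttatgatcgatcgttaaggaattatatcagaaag
sgl TSS, chr3L:6964832-6964861: atagtaattcAGTGTGACCgcggggcgagc
sgl summit, chr3L:6963901-6963961: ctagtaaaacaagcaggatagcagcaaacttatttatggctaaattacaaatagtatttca
Cyt-c-p TSS, chr2L:16719888-16719917: cggtcactctGGTCACACTaattacctatc
Cyt-c-p summit, chr2L:16720807-16720867: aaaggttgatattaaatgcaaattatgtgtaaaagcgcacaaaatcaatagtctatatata
crb TSS, chr3R:24294999-24295028: caagcggactGGTCACACTgcaccatatat
crb summit, chr3R:24296035-24296095: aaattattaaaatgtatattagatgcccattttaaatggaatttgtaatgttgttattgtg

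Bteb2 peaks thinned out with distance from the TSS, and within the band of 501 to 1000 bp their density crossed that of the genome at large. The band held 10.04% of the genome and 9.49% of the optimal summits, a ratio of 0.946, whereas the first 500 bp held 13.6% of the genome and 59.0% of the summits, a ratio of 4.35. By steps of 100 bp the band held 91, 74, 66, 41 and 46 summits, and the ratio to the genome was 1.23 at 501 to 600 bp and 0.758 at 901 to 1000 bp. The median distance was 693.5 bp.

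The comparison peaks used throughout are 14695 weak peaks of the same libraries: the weaker 15000 of the 30000 peaks in the relaxed list made from both replicates, less those that overlap an optimal peak. Shares of peaks were compared by Fisher's exact test throughout, two-sided, and exact p-values are given after Benjamini-Hochberg adjustment within the family named. Of them 2036 lay in the same band (13.9%), against the 9.49% of optimal summits, as a description of the distances that set the band. The order depended on the optimal summits close to the TSS: among summits beyond 500 bp, the band held 23.1% of the optimal and 18.1% of the comparison summits. Tests over peaks here treat each peak as independent and say nothing of variation between embryos. All intervals cover the counting of peaks only.

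**Figure D1:**
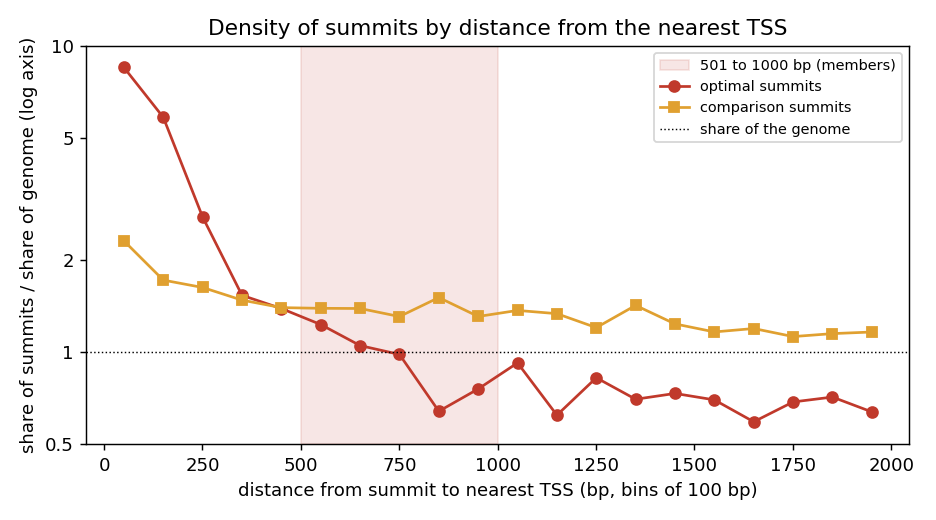
Share of summits divided by share of the genome (log axis) in steps of 100 bp from the nearest TSS, for all optimal summits and the 14695 comparison summits, with the band of 501 to 1000 bp shaded. Optimal summits pass from 1.23 to 0.758 times the genome across the band, while comparison summits stay between 1.31 and 1.51.

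Just inside the lower edge lay the peaks at lncRNA:CR44619 (501 bp, pooled signal 652) and CG17896 (504 bp, 430), and just outside it those at CrebA (498 bp, 99.4) and t-cup (500 bp, 109). Just inside the upper edge lay par-1 (993 bp, 84.8) and sgg (995 bp, 94.1), and just outside it Raf (1002 bp, 136) and CG43131 (1008 bp, 196). Raf also has a summit inside the band, and both Raf peaks overlap the same replicate peaks. The edges therefore divide some runs of neighbouring summits.

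The peaks of the band were mostly intronic. Of the 318 summits, 224 lay in an intron (70.4%, 65.1 to 75.4%), 71 were intergenic, 12 lay in a 5′ UTR, 9 in a noncoding exon, 1 in a coding exon and 1 in a 3′ UTR. The single coding-exon summit was at DCP2, which encodes the mRNA decapping enzyme, and the single 3′ UTR summit lay in CNBP, whose neighbour CG3788 has the nearest TSS; both genes were looked up after their counts were seen. Of the intronic summits, 120 lay downstream of the nearest TSS and within that same gene, and 71 lay upstream of the nearest TSS but still inside that gene, because another TSS of the gene lies farther upstream. A further 27 lay upstream, and 6 downstream, inside an intron of another gene only.

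Comparison peaks of the same band were spread over exons. Introns held 40.5% of them, so the odds ratio for an intronic summit was 3.51 (2.71 to 4.53, adjusted exact p = 3.71e-23 over 6 classes). Against the next-ranked peaks below the optimal list, 60.7% of which were intronic in the band, the odds ratio was 1.54 (adjusted exact p = 0.0313). Coding exons held 0.314% of the optimal summits of the band and 27.9% of the comparison summits, with an odds ratio of 0.00815 (adjusted exact p = 2.75e-39). For 3′ UTRs the shares were 0.314% and 7.07%, with an odds ratio of 0.0414 (adjusted exact p = 4.09e-08). For intergenic summits they were 22.3% and 17.6% (adjusted exact p = 0.0762), and for 5′ UTRs 3.77% and 3.98% (adjusted p = 1), neither of which passed. Coding exons are richer in GC than introns, and GC content differed between these sets as given below; its part in the location classes was not tested.

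**Figure D2:**
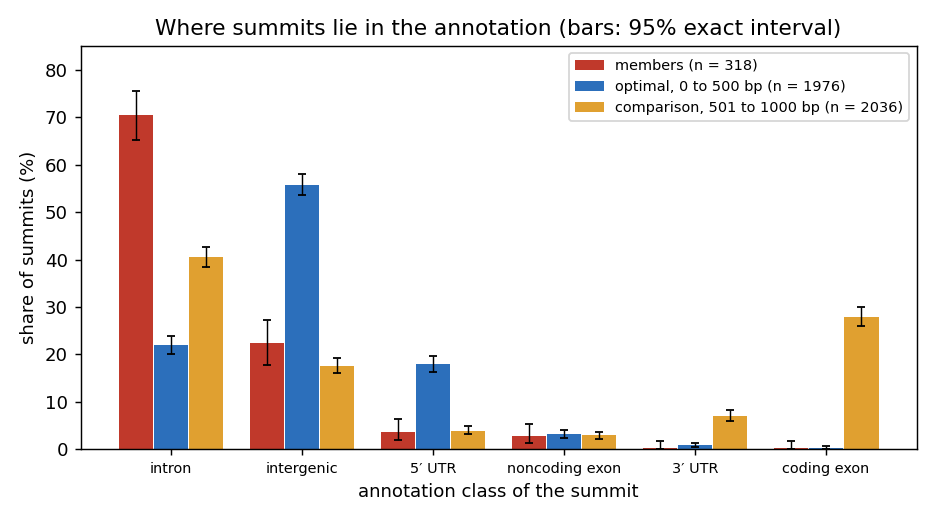
Share of summits in each annotation class for the 318 optimal summits 501 to 1000 bp from a TSS, the 1976 nearer optimal summits and the 2036 comparison summits of the same band, with exact 95% intervals. The band is mainly intronic (70.4%), the nearer summits mainly intergenic (55.7%), and coding exons hold 27.9% of the comparison summits.

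The bias of nearer peaks towards the upstream side of the TSS was smaller in the band. Upstream of the nearest TSS lay 166 of 318 summits (52.2%, 46.6 to 57.8%), against 1611 of 1976 nearer summits (81.5%), an odds ratio of 0.247 (0.193 to 0.317, adjusted exact p = 2.45e-26). Among comparison summits of the band 793 of 2036 lay upstream (38.9%). The upstream summits of the band divided into 98 in introns and 65 in intergenic DNA, and of the 152 downstream summits 126 were in introns.

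Signal in the band was close to that of nearer peaks in its median and range. Pooled signal, a unitless enrichment value from the authors' peak caller, had a median of 100.999 (66.2 to 1056), against 103 at nearer peaks and 92.3 at distal peaks. In the exact test, above the median of all optimal peaks (98.8) were 163 of 318 peaks in the band (51.3%) and 53.6% of nearer peaks, an odds ratio of 0.911 whose interval of 0.718 to 1.15 bounds the difference (adjusted p = 0.601). Among distal peaks 42.9% were above that median, an odds ratio of 1.40 (1.09 to 1.80, adjusted exact p = 0.0226). In the same exact test the call against distal peaks was lost with TSSs of protein-coding genes alone (odds ratio 1.30, adjusted p = 0.0912), without replicate 3 (1.31, adjusted p = 0.0684) and with 1 peak per nearest gene (1.21, adjusted p = 0.262).

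The optimal list was selected for agreement between the replicates, so presence in both libraries follows from that choice and is given as a description. In the relaxed list of each replicate, 317 of the 318 had an overlapping peak; the exception, at CG14314, lacked one in replicate 1. Each replicate list was then limited to as many of its strongest peaks as the optimal list holds. That left 241 of the 318 in both replicates (75.8%), while 44 were among the strongest of replicate 1 but not of replicate 3, 31 showed the opposite and 2 were in neither. The share in both was 76.5% for nearer peaks (odds ratio 0.963, 0.730 to 1.27, adjusted p = 0.776) and 70.2% for distal peaks (1.33, 0.997 to 1.78, adjusted p = 0.0837, exact tests). Across the 317 peaks the replicate signals had a Spearman correlation of 0.697, as a description of 2 libraries that share the genome and its mappability. A replicate signal here is that of the strongest overlapping replicate peak. In replicate 1, 14 of the 318 peaks shared theirs with another peak of the band. Sharing with optimal peaks outside the band, as at Raf, was not counted.

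**Figure D3:**
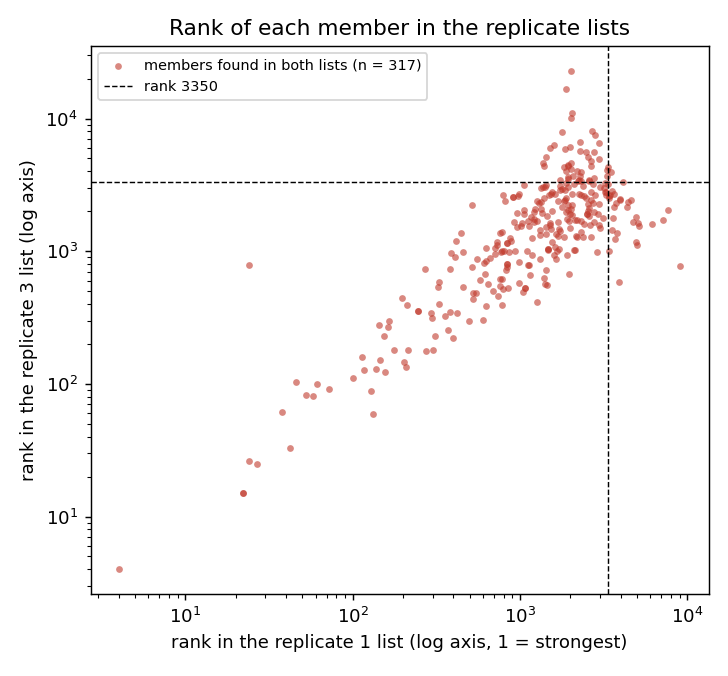
Rank of each of the 317 peaks found in both replicate lists, replicate 1 on the horizontal and replicate 3 on the vertical log axis (1 is the strongest), with dashed lines at the rank equal to the length of the optimal list. Of the 318 peaks, 241 lie within those lines in both libraries. The point at rank 24 in replicate 1 and 781 in replicate 3 is the second CG9663 peak, which overlaps the replicate 1 peak of its stronger neighbour.

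The strongest peak of the band lay 976 bp upstream of a TSS of Lk6, a protein kinase of the Mnk family that phosphorylates the translation factor eIF4E. Its signal was 1056 in the pooled list, 663 in replicate 1 and 395 in replicate 3, and it ranked 4 of all peaks in each of the 3 lists. The summit lay within an intron of a longer Lk6 transcript.

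HmgZ, which encodes an HMG-box chromatin protein, had the second strongest peak, 542 bp upstream of a TSS, at 683 pooled, 404 in replicate 1 and 285 in replicate 3. A weaker summit at HmgZ, 228 bp farther away, had a pooled signal of 170. The peak 501 bp downstream of the start of lncRNA:CR44619 had signals of 652, 386 and 268 in the same 3 lists.

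At CG9663 the peak 953 bp downstream of a TSS had signals of 651 pooled, 396 in replicate 1 and 253 in replicate 3, and a second summit, 752 bp from the TSS, had a pooled signal of 79.9. The peak in lncRNA:CR46035, a noncoding gene that overlaps osa, had 540, 324 and 212. osa encodes a subunit of the Brahma chromatin remodelling complex. At chif, which encodes the Dbf4-type activator of the Cdc7 replication kinase, the peak 985 bp upstream had 510, 332 and 175.

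lncRNA:CR45643 had an intergenic peak on each side, 902 bp downstream and 901 bp upstream of its nearest TSS, with pooled signals of 433 and 432, replicate 1 signals of 280 and 292 and replicate 3 signals of 154 and 139. These twin peaks were 2008 bp apart and of almost equal strength in the pooled list. Next in order came CG17896 (430 pooled), CG31635 (415), LPCAT (405), sp3 (381), wde (375), Adf1 (357), CG42327 (340) and MYPT-75D (335). LPCAT acts in phospholipid remodelling, wde encodes the partner of the histone H3K9 methyltransferase eggless, Adf1 is a MADF-domain transcription factor and MYPT-75D targets myosin phosphatase.

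The remaining 9 of the strongest 25 had pooled signals between 282 and 324. They lay at asRNA:CR45804 (inside Prps), jp, Reph, the shared TSS region of CG7694 and fray, sick, lncRNA:CR42794, asRNA:CR44512 (inside Zw), mub and brat. jp encodes junctophilin, fray a Ste20-type kinase of ion transport, Zw glucose-6-phosphate dehydrogenase, mub a KH-domain RNA-binding protein and brat a translational repressor that restrains neural stem cell growth. All 25 ranked within the first 300 peaks of both replicates. They were picked by pooled signal, which comes from these same replicates, so this rank is a description only. Of the 25, 17 were intronic, 6 intergenic and 2 in noncoding exons, and 7 had a noncoding RNA gene as the nearest.

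Some peaks of the band came with a second one. Another optimal summit lay within 1000 bp of 72 of the 318 (22.6%, 18.2 to 27.6%) and of 14.7% of nearer summits, an odds ratio of 1.70 (1.27 to 2.28, adjusted exact p = 0.00145). With a limit of 500 bp the shares were 10.7% and 9.87% (odds ratio 1.09, adjusted exact p = 0.693). Among peaks of the upper signal range they were 14.1% and 9.82% (1.51, adjusted exact p = 0.173), where only companions in that range were counted. From any peak of the band a limit of 1000 bp reaches the nearest TSS, around which optimal summits were densest. What part of the difference in shares this accounts for was not tested. An optimal summit stood within 500 bp of that nearest TSS for 54 of the 318 (17.0%), and 41 of these were among the 72 above. In the relaxed pooled list, 172 of the 318 (54.1%) had no summit within 250 bp of that TSS, a narrower limit. The same share over all annotated TSSs was not counted, so the 54.1% has no background to be read against.

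The summit lay in a narrow trough of GC content. GC content within 100 bp of the summit on either side averaged 35.5% ± 6.39 (SD, n = 318), against 36.6% ± 6.91 at nearer peaks (n = 1976), 35.4% ± 6.03 at distal peaks (n = 1056) and 43.0% ± 10.1 at comparison peaks of the band (n = 2036). In steps of 50 bp the mean fell to 33.5% beside the summit, against 42.3% in the step centred 225 bp away on the far side from the TSS and 42.7% in that on the TSS side. Comparison peaks stayed between 41.7% and 43.6% throughout. In 262 of 318 cases the window at the summit had a lower GC content than an equal window at its own TSS, where the mean was 45.3% ± 7.31.

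GC content below the median of all optimal windows (35.3%) was found at 167 of 318 peaks in the band (52.5%), 46.1% of nearer peaks (odds ratio 1.29, 1.02 to 1.64, adjusted p = 0.0617) and 50.5% of distal peaks (1.09, 0.844 to 1.39, adjusted p = 0.635, exact tests). Neither difference passed, although within 50 bp of the summit the first did, at 53.1% and 43.6% (1.47, adjusted exact p = 0.00354). Within 200 bp the order was the other way, at 49.1% and 51.2% (0.919, adjusted exact p = 0.570).

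**Figure D4:**
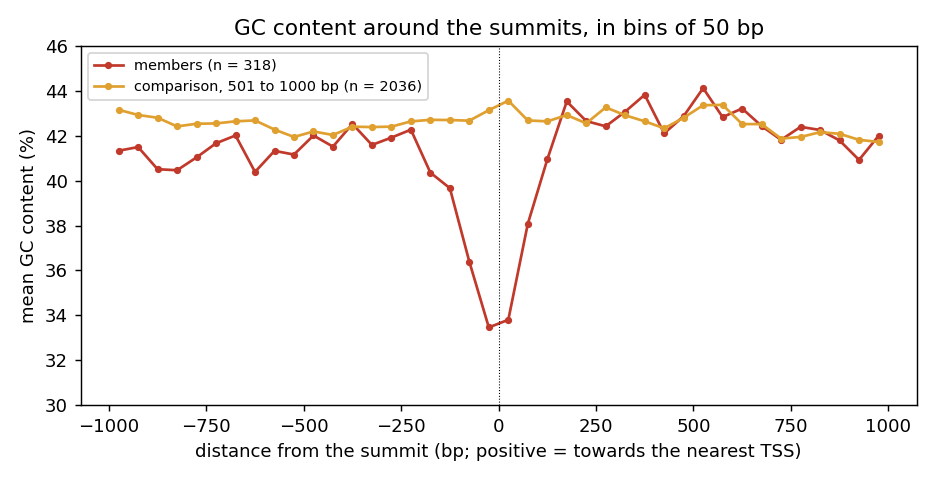
Mean GC content in steps of 50 bp around the summit, oriented so that positive distances run towards the nearest TSS, for the 318 optimal summits and the 2036 comparison summits of the band. The optimal summits show a trough with a lowest value of 33.5%, and the comparison summits stay between 41.7% and 43.6%.

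The core promoter elements of nearer peaks were scarce in the band. Of 24 motifs, 4 (16.7%) differed from nearer peaks, and all 4 were less frequent in the band (windows of 100 bp on either side of the summit, both strands, exact tests adjusted over 24). DRE (TATCGATA) was found at 2 of 318 summits (0.629%) and 162 of 1976 nearer summits (8.20%), an odds ratio of 0.0709 (0.0175 to 0.287, adjusted exact p = 7.50e-08). CGATA, which lies inside DRE and is the core of the BEAF-32 site, was found at 63 (19.8%) and at 39.8%, an odds ratio of 0.373 (0.279 to 0.499, adjusted exact p = 3.43e-11). For scale, 5.43% of equal windows at all 23694 annotated TSSs hold DRE and 34.6% hold CGATA.

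Motif 1 was found at 0 of 318 summits and at 68 nearer summits (3.44%, adjusted exact p = 0.000410). Taking 3 counts as the limit for a count of 0 allows a share of up to 0.943%, and the exact 95% interval reaches 1.15%. The E-box CAGCTG, a site for basic helix-loop-helix proteins, was found at 20 summits (6.29%) and at 13.0% of nearer summits, an odds ratio of 0.449 (0.280 to 0.719, adjusted exact p = 0.00234). With a window of 50 bp on either side, and among the stronger optimal peaks alone, motif 1 and CAGCTG no longer passed while DRE and CGATA did. The KLF/SP box, the site known for the family and searched as GGGCGGG or GGGCGTG or GGGTGGG or GGGTGTG, was found at 12 summits (3.77%) and at 3.80% of nearer and 3.79% of distal summits.

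The 2 summits with a DRE lay downstream of Stt3A, a subunit of the oligosaccharyltransferase, and upstream of Sumo, the fly SUMO protein. Their pooled signals were 144 and 91.3, with 96.9 and 69.3 in replicate 1 and 47.9 and 21.5 in replicate 3. The DRE (capitals) and its surroundings read as follows on the plus strand of dm6.
Stt3A, chrX:21053305-21053344, intron: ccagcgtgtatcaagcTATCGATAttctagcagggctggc
Sumo, chr2L:6968270-6968309, intergenic: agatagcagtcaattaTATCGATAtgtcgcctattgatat

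No motif or word separated the band from distal peaks within 100 bp of the summit. With 200 bp on either side, 1 of the 24 motifs did. Against distal peaks 0 of the 24 motifs passed (0%; exact tests, 0 at an unadjusted p under 0.05, smallest adjusted p = 1). DRE was at 0.379% of distal summits, CGATA at 22.2% and CAGCTG at 6.44%. Of the 2080 6-base words 0 passed against distal peaks (0%; 97 at an unadjusted p under 0.05, smallest adjusted exact p = 0.165). These tests do not show that the sets are alike: for CGATA the interval of the odds ratio was 0.635 to 1.19, and for the GAGA site, GAGAGAG, it was 0.941 to 3.54 (4.40% of the band and 2.46% of distal summits).

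**Figure D5:**
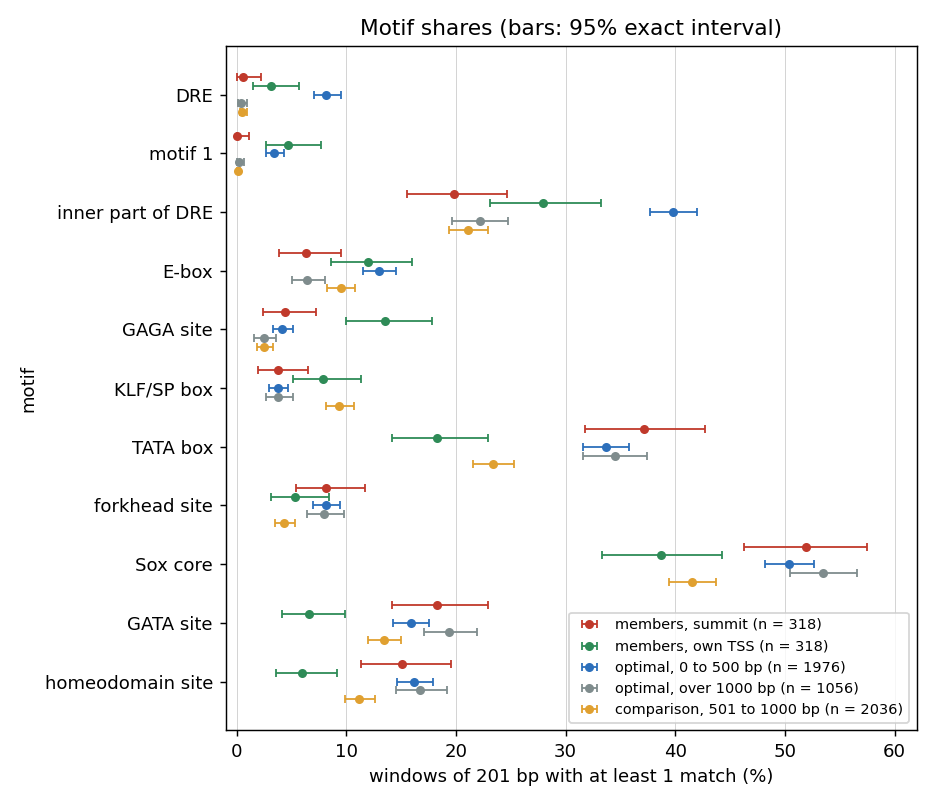
Share of windows, 100 bp to either side of the summit or TSS, with at least 1 match to each motif, with exact 95% intervals, at the summits of the 318 peaks, at their own TSSs, and at nearer, distal and comparison summits. DRE, motif 1 and the inner part of DRE are lower at the 318 summits than at nearer summits, while the 318 summits and the distal summits lie close together.

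Among 6-base words, 14 of 2080 (0.673%) differed from nearer peaks, 13 less and 1 more frequent in the band (exact tests adjusted over 2080). Most of the 13 contained CGAT, a part of DRE, on one strand or the other, such as TATCGA at 5.97% and 24.3% (odds ratio 0.198, adjusted exact p = 7.26e-13) and CGATAG at 4.09% and 18.4% (0.189, adjusted p = 7.83e-10). GGTCAC, part of motif 1, was at 2.52% and 9.26% (0.253, adjusted exact p = 0.00267). The words of DRE and motif 1 carry the same limit as those elements, the distance that set the band. CCAGCG was at 0.943% and 5.47% (0.165, adjusted exact p = 0.0195), a call lost without replicate 3 and at equal GC content. The single word that was more frequent, CATACA, was at 65 summits (20.4%) and 10.4% of nearer summits (2.22, 1.63 to 3.02, adjusted exact p = 0.000547). It was also at 16.7% of distal summits, and in windows 200 to 800 bp from the summits of the band its share was between 12.6% and 19.8%.

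Against comparison peaks of the band, 6 of 24 motifs passed (25%, exact tests). Higher in the band were the TATA box at 37.1% and 23.4% (odds ratio 1.93, adjusted exact p = 1.21e-05), the forkhead site at 8.18% and 4.32% (1.97, adjusted p = 0.0287) and the Sox core ACAAT at 51.9% and 41.6% (1.52, adjusted p = 0.00507). Lower were the KLF/SP box at 3.77% and 9.38% (0.379, adjusted exact p = 0.00507), the Pho core GCCAT at 26.4% and 33.8% (0.702, adjusted p = 0.0339) and the Tead site CATTCC at 5.03% and 9.48% (0.506, adjusted p = 0.0339). All 6 calls were lost when windows of equal GC content were compared, when the next-ranked peaks served as the comparison, and among the stronger optimal peaks alone.

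Of the 2080 words, 468 (22.5%) differed from comparison peaks of the band, 200 more and 268 less frequent, and 13 at equal GC content. The highest odds ratio was that of ACAGTG, which was at 71 of 318 summits (22.3%) and 8.40% of comparison summits (3.14, 2.31 to 4.26, adjusted exact p = 1.83e-09). ACTGTA followed at 17.6% and 6.88% (2.89, adjusted exact p = 7.41e-07), and the AT-only words AAAAAA and TTAAAA came next, with odds ratios of 2.62 and 2.58. ACAGTG and ACTGTA passed at equal GC content too, and AAAAAA and TTAAAA did not. ACAGTG was at 16.5% of nearer and 22.8% of distal summits, at 9.80% of all TSS windows, and at 8.18% to 16.4% of windows 200 to 800 bp from the summits of the band. Both words were most frequent at the summit, and the summit share exceeded that of the highest other window by more for ACAGTG than for CATACA.

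The summit was also set against an equal window at its own TSS, peak by peak, and 7 of 24 motifs (29.2%) differed (two-sided exact McNemar tests, adjusted over 24). Lower at the summit were motif 1 at 0 and 15 windows (0% and 4.72%, adjusted exact p = 0.000366), the GAGA site at 14 and 43 (4.40% and 13.5%, adjusted p = 0.000366) and CAGCTG at 20 and 38 (6.29% and 11.9%, adjusted p = 0.0455). Motif 1 is a core element close to the TSS, and the rule kept every summit away from any TSS. The direction for motif 1 therefore rests on the distance that set the band and is no separate result. Higher at the summit were the TATA box at 118 and 58 (37.1% and 18.2%, adjusted exact p = 1.47e-05), the GATA site at 58 and 21 (18.2% and 6.60%, adjusted p = 7.75e-05), the homeodomain site TAATTA at 48 and 19 (15.1% and 5.97%, adjusted p = 0.00203) and the Sox core at 165 and 123 (51.9% and 38.7%, adjusted p = 0.00386). In the same exact tests CAGCTG was lost without replicate 3 (adjusted p = 0.0801), among the stronger optimal peaks (0.246), within 50 bp (0.496) and within 200 bp (0.596). The calls of the GAGA site, the GATA site, TAATTA and the Sox core were lost within 200 bp (adjusted p between 0.0778 and 0.211), where only motif 1 and the TATA box passed.

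The motifs that were higher at the summit are rich in A and T, and the summit windows were lower in GC content than the TSS windows; what part of the difference this accounts for was not tested. The GATA site was at 13.7% of all annotated TSSs, TAATTA at 9.62%, the Sox core at 43.5% and the TATA box at 26.2%. Each share was above that at the TSSs of these peaks, which was not tested. In windows 200 to 800 bp from the summit the GATA site reached 19.8% and the Sox core 50.3%. TAATTA reached 14.5% there and the TATA box 25.2%. The GAGA site, bound by the Trl protein, was at 13.5% of these TSSs and at 4.48% of all annotated TSSs, which was not tested. DRE was at 2 summits and 10 of the TSSs (adjusted exact p = 0.0516) and the KLF/SP box at 12 and 25 (adjusted p = 0.0941), neither of which passed. In steps of 200 bp the KLF/SP box was least frequent at the summit (3.77%), against 5.66% to 12.9% in the windows up to 800 bp away. The box is rich in G and C, and the summit lay in a trough of GC content. What part of the lower share this accounts for was not tested.

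The 318 peaks had 301 distinct nearest genes or tied pairs. The nearest gene was protein-coding for 273 peaks (85.8%) and for 94.6% of nearer peaks, and a noncoding RNA gene for 41 (12.9%) and 4.71%, as counts without a test. The same shares at distal and comparison peaks were not counted. By gene, 1.80% of long noncoding RNA genes had the nearest TSS of a peak in the band, near the 1.67% of all genes. The peaks were spread over the arms, with 63 on 2L, 60 on 2R, 60 on 3L, 68 on 3R, 65 on X and 2 on 4. Of the nearest genes 16 had more than 1 peak of the band, and Kank had 3, with pooled signals of 112, 88.3 and 71.4.

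In all, 306 of 18277 genes (1.67%) and 262 of 13968 protein-coding genes (1.88%) had the nearest TSS of a peak in the band, and 12.9% of protein-coding genes that of a nearer peak. The lists below are read against these shares, with no test. None of the 10 KLF and SP genes had a peak of the band (btd, cbt, CG3065, CG42741, dar1, hkb, Klf15, luna, Sp1 and Spps). The closest to one was cbt, 8793 bp away, and Klf15 itself lay 148096 bp from the closest.

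Several lists with nearer peaks had none in the band. Of 93 cytoplasmic ribosomal protein genes 0 had a peak of the band, while 63 (67.7%) had a nearer peak. For the 73 mitochondrial ribosomal protein genes these counts were 0 and 15, for the 15 genes of insulator and promoter element binding proteins 0 and 7, and for 10 heat shock genes 0 and 4. At the background of 1.88% fewer than 2 of the 93 genes would have a peak of the band, so a count of 0 is near the background for each of these lists and is no result about them.

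Some signalling lists had genes with a peak of the band, while the Notch, Hedgehog and JAK/STAT lists had none. Of 12 Hippo pathway genes 4 (33.3%) had a peak of the band. Diap1, the caspase inhibitor that the pathway controls, had the strongest, 717 bp downstream of its TSS, with signals of 209 pooled, 127 in replicate 1 and 84.5 in replicate 3. ds, the atypical cadherin that binds Fat, had 92.3, 61.8 and 32.3, mats, the Mob partner of Warts, had 84.3, 49.3 and 25.6, and ex, a FERM-domain upstream regulator, had 77.8, 47.0 and 30.1. These last 3 were below the optimal median of 98.8.

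Of 23 receptor tyrosine kinase and Ras genes 5 (21.7%) had one. RasGAP1, which switches Ras off, had signals of 245 pooled, 169 in replicate 1 and 75.4 in replicate 3, the Raf kinase 181, 110 and 72.6, the insulin receptor InR 157, 94.97 and 65.1, and the repressor cic 117, 92.9 and 30.1. The Raf and cic summits lay in 5′ UTRs.

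Of 17 Dpp pathway genes 2 had one. Mad, the Smad that carries the Dpp signal, had 161 pooled, 92.6 in replicate 1 and 71.0 in replicate 3. brk, the repressor of Dpp target genes, had a pair of summits 851 and 648 bp upstream, with pooled signals of 150 and 84.8; both overlapped the same replicate peaks, of 79.0 and 70.5. In the Wingless pathway 1 of 14 genes had one, sgg, the GSK3 kinase (94.1, 56.7 and 36.5).

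Of 22 Polycomb, trithorax and remodeller genes 2 had a peak of the band, Trl, the GAGA factor (98.5, 70.0 and 36.2), and ph-d, a subunit of Polycomb repressive complex 1 (74.8, 33.0 and 40.3). Of 25 cell cycle and replication genes 2 had one, Cdk4 (107, 61.0 and 43.2) and CycE (67.9, 35.6 and 32.5). Of 16 neural fate genes 1 had one, the neuronal RNA-binding gene elav (124, 91.7 and 32.4), whose TSS position is shared with lncRNA:enrr. These values are pooled, replicate 1 and replicate 3 signals in that order.

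Among noncoding genes, 35 of 1945 long noncoding RNA genes (1.80%), 2 of 290 tRNA genes and 1 of 269 snoRNA genes had one. The tRNA genes were tRNA:Ile-AAT-1-9 (pooled signal 118) and tRNA:Gly-GCC-1-6 (67.9), and the snoRNA gene was snoRNA:Me18S-G1358a (107). No peak of the band was nearest to any of the 8 Hox, 18 segmentation, 9 Hedgehog, 13 matched Notch, 7 JAK/STAT, 12 ecdysone response, 9 clock, 12 heart or 6 nephrocyte genes. The Notch, clock, Hedgehog, JAK/STAT, ecdysone, heart and nephrocyte lists each had between 1 and 4 genes with a nearer peak, and the Hox and segmentation lists had none.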

How the data were processed

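Peak lists on dm6 for 2 Bteb2-eGFP libraries (1 group) were used, all 1-based here. The authors' deposited lists hold a relaxed set per replicate, a relaxed pooled set and an optimal set kept by irreproducible discovery rate, per the labels and file notes; the aligner, peak caller, threshold and read depth were not given in the sources used here. Signal is the authors' deposited column and was used to describe and rank peaks within a list; values of different lists are side by side only and were not compared. Distances were taken to any TSS of Ensembl release 115 (FlyBase 6.54), with transposable elements left out. A replicate value is that of the strongest replicate peak overlapping by at least 1 bp. Sequences come from the Release 6 assembly.

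Shares were compared over peaks by two-sided Fisher's exact tests with sample odds ratios and Woolf intervals, and summit with own TSS by exact McNemar tests. Benjamini-Hochberg adjustment ran within 9 share tests, 6 location classes, 24 motifs or 2080 words, at 0.05. Equal GC content means exact conditional tests over 10 strata. No test was made over the replicates. Comparison peaks come from the end of the relaxed list and may include background regions. Named genes are those at the strongest 25 peaks, at the band edges, all KLF and SP genes and up to 4 per other list. Of 25 gene lists the microRNA list matched no gene, and 1 Notch pathway symbol was unmatched and 1 updated. Members, motifs and lists were chosen with earlier results of these data known. Procedures were tested on simulated data. Software was SciPy 1.17.1, NumPy 2.4.6, matplotlib 3.10.9, pandas 2.3.3 and Python 3.11.15.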

Additional observations from a re-analysis of the deposited data

How the results depend on the processing

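Each result was recomputed with 1 choice changed, among them TSSs of protein-coding genes only, the peak centre, the stronger peaks of the optimal list, another motif window, equal GC content, 1 peak per nearest gene and each replicate alone. The upstream and intron shares and the odds ratios of DRE and CGATA against nearer peaks kept their direction and their call in every alternative run for them, although the intron odds ratio was 1.54 against the next-ranked peaks, and otherwise 2.83 to 4.23. ACAGTG against comparison peaks also did so in the alternatives run for it, at odds ratios of 2.27 to 3.57. Those were each replicate left out, equal GC content and 1 peak per nearest gene. Words were not run against the next-ranked peaks, among the stronger peaks or in other windows. The DRE and CGATA results against nearer peaks rest, in every alternative, on the distance that set the band.

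With the stronger peaks of the list alone the band held 163 peaks, and its outer part, beyond 750 bp, held 123. The band share against comparison peaks, which rests on the distance that set the band, was not called against the next-ranked peaks (odds ratio 0.891). Higher signal than at distal peaks was not called with protein-coding TSSs (1.30) or 1 peak per gene (1.21), and ranged from 1.31 to 1.42 with each replicate left out, the lower without replicate 3 and not called. A low GC share above that of nearer peaks was called in the narrow window only (1.47), and the ratio was 0.919 in the wide one. A companion peak was not called among stronger peaks (1.51) or within 500 bp (1.09).

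Motif calls against nearer peaks numbered 2 among stronger peaks and 2 in the narrow window, against distal peaks 1 in the wide window (200 bp on either side), and at the summit against its own TSS 2 in the wide window. Against comparison peaks they numbered 0 among stronger peaks, 0 at equal GC content and 0 against the next-ranked peaks, where words fell to 13 at equal GC content. The TATA box then had an odds ratio of 1.00, marginally on the other side of equality. The cause of the other changes was not tested, except that the smaller sets hold fewer peaks. The read depth is unknown, so it sets no limit that can be stated here, and comparison peaks may include background.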
